A study of Mus musculus with 6 samples.

Results

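Neil3, the gene disrupted in the knockout mice, carried 3 called regions of altered CpG methylation in its body, and a further 7 lay within 650 kb of it on either side. These 10 regions, out of 230 in the authors' deposited table, were chosen by position, with earlier results of these data known. They are the rows on chromosome 8 that overlapped the gene (53586867 to 53639065, GRCm38) or its flanks. Methylation was lower in the knockout in all 10, and in 102 of the 108 other called regions of chromosome 8. In the gene it was nearly absent over 1 region, low over the next and only modestly lower over the last, which lay 662 bp from its neighbour.

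DNA came from CA1, a field of pyramidal neurons in the hippocampus that also holds glia and vessels, cut by laser microdissection from frozen brain sections of 8 µm. The knockout group was 3 male N3 -/- mice and the wild type group 3 male mice. Both groups had a C57Bl6 background, were aged 3 to 6 months and came straight from the home cage without intervention. Levels are fractions from 0 to 1 from whole-genome bisulfite sequencing, which reads 5-methylcytosine and 5-hydroxymethylcytosine alike. Which mean belongs to which group was read from the sheet title alone. The table gives 1 mean per group, so the values below carry no spread between animals, the depth is unknown and no region was tested again. Each region is in the table because the authors called it, so it says nothing of CpGs that were not called. The disruption of Neil3 could therefore not be looked at animal by animal, and with no expression values the CA1 label could not be checked against markers.

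NEIL3 is a DNA glycosylase of the Fpg/Nei family. Such enzymes start base excision repair by cutting an oxidised base from its sugar, after which an endonuclease, a polymerase and a ligase complete the patch. NEIL3 prefers single-stranded DNA, acts on hydantoin lesions, and can unhook certain crosslinks between strands at stalled replication forks. It is known mainly from dividing cells, and in brain from neural progenitors.

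The promoter is shown first because no called region lay there, in contrast to the gene body. The 250 bases before the main start of transcription, at chr8:53639066-53639315 on the minus strand of GRCm38.p6 from RefSeq, read as follows, with each CpG in capitals.
Neil3 promoter: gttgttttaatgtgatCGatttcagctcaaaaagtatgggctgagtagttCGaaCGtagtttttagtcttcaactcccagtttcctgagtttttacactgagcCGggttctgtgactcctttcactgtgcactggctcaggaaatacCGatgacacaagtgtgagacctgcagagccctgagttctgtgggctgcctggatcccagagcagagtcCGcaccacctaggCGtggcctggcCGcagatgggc
This stretch held 8 CpGs, or 3.2 per 100 bp, with a GC content of 51.6%. The motif searched was CG, which reads the same on both strands. Of 32851 promoter windows of the same length, 92.1% held at least 1 CG and 43.0% held 8 or more, and the median was 6. With the 50 bases after the start the count was 14. Every called region in the table held at least 10 CpGs, so these 250 bases alone hold fewer than any called region. The nearest called region began 29352 bp into the gene, and nothing can be said of the methylation level of the promoter itself.

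The gene sheet of the authors lists 7 starts of transcription for Neil3. Of these, 3 lie within 387 bp of the main start, another 3 lie inside the gene between 26501 and 27636 bp from it, and the last lies 47460 bp from it. The 3 called regions fell between the inner group and the last start. They spanned 6336 bp, from 56.2% to 68.4% of the way along the gene, and covered 6.60% of its length. All 7 starts lay outside them, the closest being the start at 53611429, which was 1716 bp away. Whether the regions fall in exons, introns or the targeted part of the gene was not analysed here.

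The region closest to the inner starts, at 53607982 to 53609713, had an authors' mean of 0.00347 in the knockout, against 0.845 in wild type. This was the second lowest knockout level of all 230 regions, and it amounted to 0.411% of the wild type level. The region was 1732 bp long and held 32 CpGs. Its difference had a size of 0.842 and a q-value of 5.27e-22 in the authors' deposited table.

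Next in the direction of transcription, after a gap of 2231 bp, the region at 53604478 to 53605751 had an authors' mean of 0.140 in the knockout, against 0.907 in wild type. It was 1274 bp long with 36 CpGs. The size of the difference was 0.767 in the authors' deposited table (q = 1.21e-27). Both of these regions were highly methylated in wild type, and the second kept 15.5% of the wild type level in the knockout.

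The third region, at 53603378 to 53603816, followed after 662 bp and had an authors' mean of 0.695 in the knockout, against 0.909 in wild type. It was the shortest of the 3, with 439 bp and 13 CpGs, and its difference of 0.214 was the weakest in the gene (q = 0.0264 in the authors' deposited table). Wild type levels in the gene were thus close together, at 0.845 to 0.909, whereas knockout levels covered 0.00347 to 0.695 and were higher from region to region in the direction of transcription. With no coverage in the table, missing sequence and lost methylation cannot be told apart in the disrupted gene.

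**Figure D1:**
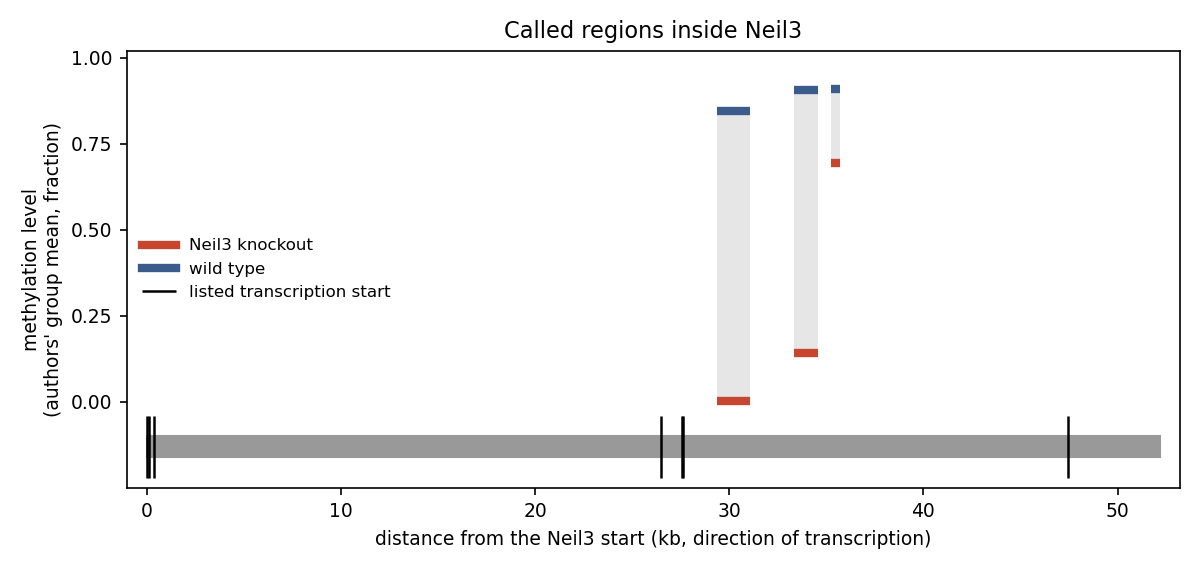
Methylation level (authors' group mean, fraction) of the 3 called regions inside Neil3 against distance from the main start in kb, in the direction of transcription. Thick bars show the knockout and wild type means over the width of each region, the grey strip is the gene and black ticks are the 7 listed starts. The knockout mean is 0.00347, 0.140 and 0.695 in the 3 regions from left to right, and the wild type mean is between 0.845 and 0.909.

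Beyond the end of the gene, towards lower coordinates, lay 5 called regions. The nearest, at 53334025 to 53336229 and 250638 bp from the gene, had an authors' mean of 0.204 in the knockout, against 0.839 in wild type. It was the longest of the 10, with 2205 bp and 97 CpGs. Here alone among the 10, the deposited difference did not match the means: its size was 0.584 in the authors' deposited table (q = 5.55e-05), whereas the means differ by 0.635.

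Further out, a pair of regions lay 303165 and 319913 bp from the gene. The one at 53283413 to 53283702 had an authors' mean of 0.0867 in the knockout, against 0.934 in wild type. It held 10 CpGs, the lowest number in any called region and one that other regions shared. Its q-value was 0.0138 in the authors' deposited table. The one at 53266129 to 53266954 held 43 CpGs and had an authors' mean of 0.0935 in the knockout, against 0.776 in wild type (q = 2.48e-16 in the authors' deposited table). Both had a knockout level under 0.1, and the second had the lowest wild type level of the 10.

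The last 2 regions on this side lay 616461 and 623846 bp from the gene and 6864 bp from each other, and their knockout levels differed widely. The region at 52969885 to 52970406 held 23 CpGs and had an authors' mean of 0.320 in the knockout, against 0.905 in wild type (q = 2.22e-05 in the authors' deposited table). In the region at 52962412 to 52963021, which held 55 CpGs, that mean was 0.0143 in the knockout, against 0.920 in wild type. The difference, 0.906 in size, ranked 5 among the 230 regions of the authors' deposited table, counted from the largest (q = 1.40e-42).

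On the other side, before the start of the gene, lay 2 regions, which were 3946 bp apart. The region at 54239030 to 54239570, 599965 bp from the gene, had an authors' mean of 0.0580 in the knockout, against 0.873 in wild type (18 CpGs; q = 3.06e-11 in the authors' deposited table). Its neighbour at 54243516 to 54244347 had an authors' mean of 0.377 in the knockout, against 0.909 in wild type (23 CpGs; q = 0.00204 in the authors' deposited table). As at the far end of the opposite flank, neighbours a few kb apart had very different shares of the wild type level, here 6.64% and 41.5%.

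**Figure D2:**
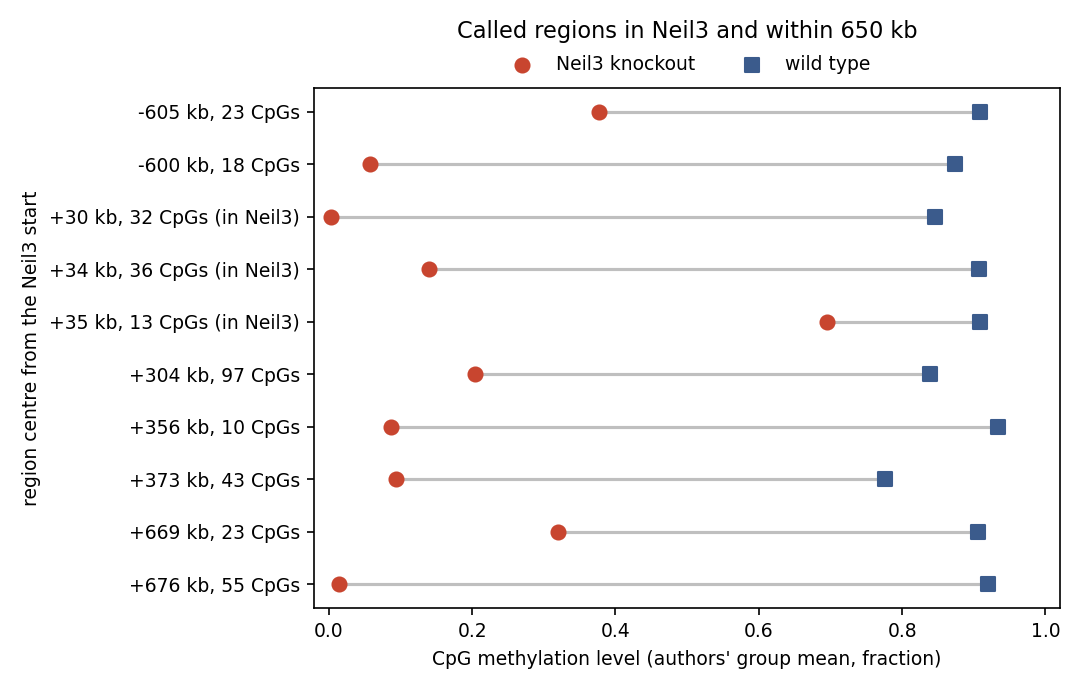
CpG methylation level (authors' group mean, fraction) of the 10 called regions, ordered by the distance of their centre from the Neil3 start in kb, positive in the direction of transcription. Circles are the knockout group and squares the wild type group, and a grey line joins the pair of means of each region. Every circle lies left of its square, with knockout means from 0.00347 to 0.695 and wild type means from 0.776 to 0.934.

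Over the 10 regions the median of the authors' means was 0.117 in the knockout and 0.906 in wild type. Knockout levels varied far more between regions than wild type levels did (SD over regions 0.214 in the knockout and 0.0486 in wild type). Differences among the 10 in the size of the change were thus mostly differences in the knockout level. Over the 7 flanking regions alone the SD was 0.139 in the knockout and 0.0555 in wild type. Over the other 104 regions within 10 Mb, of which 4 were higher in the knockout, it was 0.167 in the knockout and 0.114 in wild type. On the other chromosomes the order was reversed, with 0.252 in the knockout and 0.319 in wild type. The regions there went in both directions, 51 lower and 61 higher in the knockout, so that set is unlike the 10. All 10 regions were lower in the knockout, against 70.9% of all deposited regions. That share was 94.4% over the rest of chromosome 8 and 45.5% over the other chromosomes. The knockout mean was under 0.1 in 5 of the 10, against 27.0% of all deposited regions, and this share was 46.3% over the rest of chromosome 8 and 6.25% over the other chromosomes. Both counts for the 10 were thus near the shares on their own chromosome. With 10 regions that are neighbours on 1 chromosome, these counts describe the list and are no test.

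Density over the 10 had a median of 3.39 CpGs per 100 bp, against 3.89 over the rest of chromosome 8 and 8.80 over the other chromosomes. The value for the 10 was thus near that of their own chromosome. The 3 regions in the gene were among the sparser ones, with 1.85, 2.83 and 2.96 CpGs per 100 bp, and the first of these, the nearly unmethylated region, ranked 14th lowest of 230. The flanking regions ran from 2.76 to 9.02 CpGs per 100 bp, and the densest was the one at 52962412 with the largest loss. In total the 10 regions held 350 of the 8363 CpGs in the table.

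The same direction prevailed among the other called regions around the gene. Between 0.65 and 2 Mb from the gene, 41 of 43 regions were lower in the knockout, and the median of the authors' means was 0.0714 in the knockout and 0.860 in wild type. From 2 to 5 Mb, 38 of 39 were lower, with medians of 0.124 in the knockout and 0.861 in wild type. From 5 to 10 Mb, 21 of 22 were lower, with medians of 0.144 in the knockout and 0.857 in wild type. The median deposited difference, knockout minus wild type, was -0.72 over the 10 regions and -0.73 over the rest of chromosome 8. On the other chromosomes 51 of 112 regions were lower, and the median difference was 0.19 in the authors' deposited table.

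**Figure D3:**
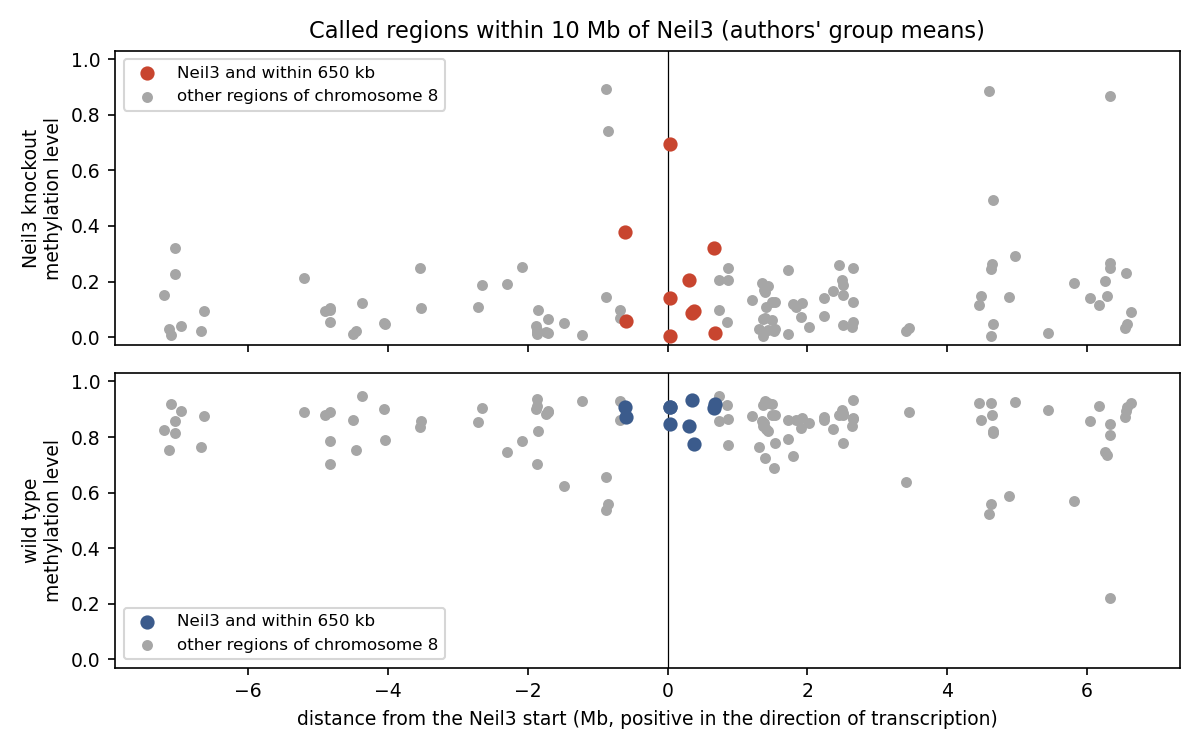
Methylation level (authors' group mean, fraction) of every called region within 10 Mb of Neil3 on chromosome 8 against distance from its start in Mb, with the knockout above and wild type below. Coloured points are the 10 regions in or within 650 kb of Neil3 and grey points are the other 104. The coloured points have a median of 0.117 in the knockout and 0.906 in wild type and lie within the range of the grey points, with 1 region of the gene at a knockout level of 0.695.

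Called regions went on beyond the limit of 650 kb on both sides, after gaps of 58.3 kb past the end of the gene and 72.4 kb before its start. The last regions inside it, at 623846 and 604451 bp, had knockout means of 0.0143 and 0.377 (authors' means). The first outside it, at 682771 and 677699 bp, had authors' means of 0.206 and 0.0682 in the knockout, against 0.949 and 0.930 in wild type.

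The 3 regions in Neil3 were the only ones of the 10 that overlapped an annotated gene, and 44.3% of all deposited regions overlapped one. Because these 3 were chosen for overlapping Neil3, the count is no result about the 10. Of 11 RefSeq genes in the window of 1.35 Mb, Neil3 alone held a called region, and 4 of the 11 are protein-coding. Aga (53511683 to 53523422), the lysosomal amidase that breaks down asparagine-linked glycoproteins, had its nearest called region 79956 bp away, in Neil3. Vegfc (54077532 to 54186454), a growth factor for lymphatic vessels, had its nearest called region 52576 bp away, the one at 54239030. The predicted coding gene Gm33153, which overlaps Vegfc, was 155287 bp from the same region. Another annotated gene, the long noncoding RNA Gm39181, lies just past the end of Neil3 and was 19004 bp from the nearest region. The 250 bases before the start of Vegfc held 30 CpGs, more than the 8 of Neil3.

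The called regions were unevenly spaced. Before the first region of Neil3 in the direction of transcription lay 629 kb with no called region, a stretch that includes the Neil3 promoter and Vegfc. It ranked 5 in length, counted from the longest, among the 113 gaps between neighbouring called regions within 10 Mb, whose median was 40.2 kb. On the other side, 267 kb without a called region lay between the third region of the gene and the nearest flanking region, and this stretch includes Aga. The table does not say whether CpGs without a call were covered.

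**Figure D4:**
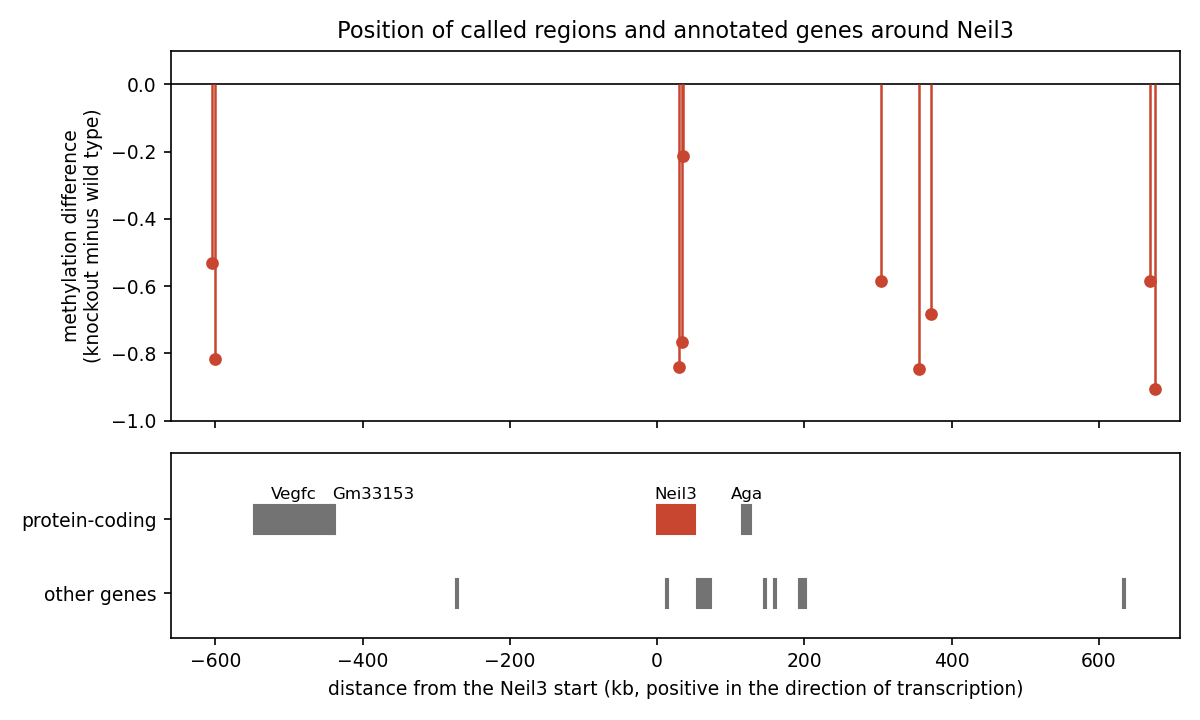
Difference in methylation level (knockout minus wild type, from the authors' deposited table) at the 10 called regions, above the annotated genes of the window, against distance from the Neil3 start in kb. Each stem is 1 region, the upper row of boxes holds the 4 protein-coding genes and the lower row the other 7 genes. All stems point down, by 0.214 to 0.906, and no stem stands over a gene other than Neil3.

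Among other genes of the same pathways, none carried a called region. Of 25 base excision repair genes, which included the other glycosylases of the family (Neil1 and Neil2), Ogg1 for oxidised guanine, the endonuclease Apex1, the polymerase Polb and the ligase Lig3, 1 held a region, and that was Neil3. Of 12 genes of replication and crosslink repair, among them the ubiquitin ligase Traip, which acts with NEIL3 at crosslinked forks, 0 held one. Of 12 genes of DNA methylation and demethylation, including Dnmt1, Dnmt3a and the Tet dioxygenases, 0 held one. Over the whole annotation 69 of 49603 genes, or 0.139%, held a called region. Counts of 0 in lists this short are near that share and are no result about these pathways. Neil3 itself is the gene around which the regions were chosen.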

How the data were processed

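CpG methylation was measured in 6 CA1 samples, 3 knockout and 3 wild type. Fragments of about 250 bp were made by sonication, joined to methylated adaptors, bisulfite converted and sequenced, per the labels' protocols. The submitters' processing notes name BSMAP as a tool and GRCm38 (mm10) as the build. How regions were called, with which coverage minimum, and how q-values were adjusted was, in the sources used here, not given.

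As fractions, the table deposited by the authors holds the authors' mean level per group. It also holds a deposited score, the difference of levels (wild type minus knockout, turned round here), and the authors' q-value per region. Wild type is the first group by the sheet title alone. The difference equalled that of the means within 0.001 in 9 of the 10 regions.

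Regions were placed on RefSeq genes of GRCm38.p6, without genes listed below 3 Mb, except on Y. Lengths count both bounds, which may be off by 1 base. The strand came from the RefSeq promoter table. Computations used Python 3.11.15, pandas 2.3.3 and numpy 2.4.6, and distances were checked on simulated regions. Named were the 10 regions, the protein-coding genes of the window and 3 gene lists. Gm39181 and the ranks among all regions were added after values were seen. The regions and lists were chosen with earlier results of these data known.

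The planned permutation test over animals was not run because no values per animal are in the table. Alternatives varied the gene bounds, flank width, q-value, CpG number, difference, merging and weighting.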

Additional observations from a re-analysis of the deposited data

How the results depend on the processing

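All 10 regions were lower in the knockout also by the difference of the means. The count of 10 regions became 4 with flanks of 300 kb, 20 with flanks of 1 Mb and 6 when regions under 10 kb apart were merged, as wider, narrower or joined windows must change it. The other 22 of 25 alternatives stayed within 1.5 times the reported count, or within the SD over regions of the reported median. These limits are wide: the SD of the knockout level was 0.214, and a fall from 3 to 2 regions passed. Both sources of gene bounds gave the same bounds and could not change the count. The number that passed is therefore no measure of robustness. Inside Neil3, 2 of 3 regions were left at a q-value of at most 0.01, at 15 CpGs or more, or at a difference of at least 0.3, the third region being the one lost. The median knockout level, or its mean weighted by CpGs, lay between 0.117 and 0.172. Without values per animal, leaving out replicates was not run. No paired analysis was possible because the deposited table gives 1 mean per group. Depth is unknown, so no level can be given a precision.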

Other observations

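Residual methylation in the knockout was uneven close to the gene. The SD over regions of the knockout level was 0.214 over the 10 and 0.139 over the 7 flanking regions alone. Over the other 104 regions within 10 Mb it was 0.167, but 4 of these were higher in the knockout. All 10 were lower, so the sets are unlike and these SDs do not show whether variation was similar. Among the 110 regions within 10 Mb that were lower in the knockout, the region of Neil3 at 53603378 had the highest knockout level (authors' mean 0.695) and the smallest difference. The regions at 54243516 (0.377) and 52969885 (0.320) ranked 3 and 5 by authors' knockout mean. Thus 3 of the 5 highest lay in or within 650 kb of the gene, where 10 of the 110 lay. The limit of 5 was arbitrary, and the levels ranked 4 and 5 were nearly equal, at 0.3208 and 0.3204. These ranks were looked up after the values had been seen. The median knockout level was close in both sets, at 0.117 over the 10 and 0.108 over the other 104. So was the share under 0.1, at 50% and 47.1%.

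The first called regions with the opposite direction lay farther out, before the start of the gene. At 54486367 to 54486990, which is 847302 bp from Neil3, the authors' mean was 0.742 in the knockout and 0.558 in wild type. Spcs3 (54520433 to 54529998), a subunit of the signal peptidase complex, held a region with more methylation in the knockout, at 54521012, with authors' means of 0.892 in the knockout and 0.536 in wild type. The same gene also held a region with less methylation, at 54523037, with authors' means of 0.144 in the knockout and 0.655 in wild type. All 3 had intermediate levels in wild type, unlike the 10 regions nearer to Neil3, whose wild type means were at least 0.776.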
